A study of Drosophila melanogaster with 26 samples.

Results

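The larval fat body was compared between 2 GAL4 driver lines on the same food. Of the 26 RNA-seq libraries of the series, 9 were used, 6 from larvae with the cg driver and 3 from larvae with the r4 driver. They were chosen by their labels, as the libraries reared on the control diet (0.15 M sucrose) whose male parent was the w1118 stock. The cg group was the female offspring of VDRC 60000 (w1118) males and virgins carrying UAS-Dcr2 on the X chromosome and cg-GAL4, taken as wandering larvae of the last instar. The r4 group was the female offspring of the same males and virgins carrying UAS-Dcr2 on the X chromosome and r4-GAL4, at the same stage. The other r4 libraries on the control diet, named below for comparison, had VDRC 60100 males as the parent. Both groups carried the transgene for Dicer-2, a nuclease that cuts double-stranded RNA, and both served as RNAi controls without a hairpin. Per the labels' protocols, the tissue was either dissected or sheared off and spun down, without saying which library had which, and rRNA was removed with RiboZero. The labels do not say whether replicates were separate cultures or animals, so p-values measure only the spread between these libraries.

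GAL4 is a yeast transcription factor, and a driver line is chosen for the tissue in which its insertion makes GAL4. cg-GAL4 uses a regulatory sequence of the collagen IV gene Cg25C and is active in fat body and haemocytes, while r4-GAL4 is active in fat body. The fat body is the insect organ for storing lipid and glycogen, and it secretes most of the proteins of the haemolymph, including the storage proteins used at metamorphosis.

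The library numbers in the titles form runs. The cg libraries were numbers 13, 14 and 15 and numbers 49, 50 and 51, called here the first and the second cg set, and the r4 libraries were numbers 55, 56 and 57. No run held both drivers, so the driver cannot be told apart from whatever separates the runs. The labels do not say what a run stands for. Each library of the deposited table has an upper quartile of exactly 1, over a number of features that differs between runs, and the values were rescaled here to 1 common upper quartile, so that a value of 1 lies at the upper quartile of the expressed features. These values are called expression ratios below. Between 7945 and 8040 features were above 0 in the first cg set, 7086 to 7934 in the second and 7124 to 7538 in r4, and the number of reads behind a value is unknown. The 10 highest features held 31.8 to 38.5% of the summed value in cg and 43.9 to 49.9% in r4. Of 12 fat body marker genes, 12 were above 0 in every library of the first cg set and 11 in each of the other 2 sets. Their summed ratio was 9120 to 10500 and 7140 to 9510 in the 2 cg sets and 11800 to 16100 in r4.

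Over 5602 features, a gene was called when its adjusted p from limma was under 0.05 and it differed from r4 in the same direction in both cg sets. By this rule 2022 features (36.1%) were called, of which 951 features (17%) were higher and 1071 (19.1%) lower in cg. Among all 2023 features with an adjusted p under 0.05, 1 went in opposite directions in the 2 cg sets. Over all 5602 features the direction was the same in 77.7%. Both sets were compared with the same r4 libraries, and a difference between the sets adds to the spread in this test. Few features of opposite direction could therefore pass, and the count does not measure how well the sets match. The first cg set alone differed from r4 in 2997 features (53.5%), 1373 higher and 1624 lower, and with values as deposited the split was 1666 and 1133, with median-of-ratios scaling 1690 and 1315. The second differed in 1626 (29%), and 1241 features (22.2%) were called and also past 0.05 in each set alone. These comparisons of 1 set used a fit with a mean for each run and diet. Below, the second cg set alone means the fit behind the 2022 calls without the first set's control libraries, which called 999. That fit pools the high-sugar libraries of both cg runs, so a lost call there does not show that the second set lacks the difference. The 2 cg sets differed from each other in 1775 features (31.7%), with 1011 higher and 764 lower in the second. That split was 446 and 1199 with values as deposited and 740 and 952 with median-of-ratios scaling, so it turned round. The median absolute log2 difference was 0.60 between cg and r4 and 0.50 between the 2 cg sets. Of the 2022 called features, 825 also differed between the cg sets, and in 213 the difference between the sets was the larger one. By pairs of libraries, the median absolute log2 difference was 0.65 to 0.93 between the first cg set and r4, 0.40 to 0.62 between the second and r4, and 0.39 to 0.67 between the cg sets. Within a set it was 0.22 to 0.40. The middle value was 0.52 between the second cg set and r4 and 0.53 between the 2 cg sets. In bulk tissue, fewer cells of a type and less RNA per cell cannot be told apart. Without r4 57 the count of called features was 1194, and without r4 55 it was 1355.

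By chromosome, the largest difference lay in the mRNAs of the mitochondrial genome, which encode core subunits of the respiratory chain and of ATP synthase. Of these 13 mRNAs, 12 (92.3%) were called higher in cg and none lower, with a median log2 difference of 5.18. Summed over the 13, the expression ratio was 1370 to 1990 in the first cg set and 1460 to 1710 in the second, against 26.6 to 47.2 in r4. The mean sum was 46.4 times as high in cg, and no cg library came near the r4 range. The 13 mRNAs made up 2.37 to 4.40% of the summed value of a cg library and 0.0529 to 0.0882% of that of an r4 library. In the 4 control libraries of the other r4 stock, 60100, the sum was 7.84 to 25.7. This grouping by chromosome was chosen after values had been seen.

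Cytochrome c oxidase subunits, of complex IV, had the highest ratios of the 13. CoIII stood at 663, 559 and 441 in the first cg set and 547, 573 and 499 in the second, against 3.03, 11.3 and 9.63 in r4 (log2 difference 6.27 ± 0.60 SE, limma adjusted p = 9.51e-08). CoI stood at 585, 496, 408, 468, 520 and 438 in the 6 cg libraries and at 13.6, 15.6 and 6.41 in r4 (5.43 ± 0.32, adjusted p = 6.49e-11). CoII stood at 203 to 373 in cg and at 3.03 to 6.88 in r4, a difference of 5.74 ± 0.45. In each of these genes the lowest cg library was far above the highest r4 library. Cyt-b, the cytochrome of complex III, had 98.0 to 158 in cg and 1.68 to 3.92 in r4 (5.75 ± 0.49). ATPase6, a membrane subunit of ATP synthase, had 52.9 to 78.1 in cg and 1.22 to 3.10 in r4 (4.92 ± 0.46). The complex I subunits ND4 (5.83 ± 0.36), ND1 (5.23 ± 0.42), ND3 (5.18 ± 0.64), ND5 (3.94 ± 0.38) and ND2 (2.37 ± 0.61) also rose without overlap. ND4L, another subunit of complex I, stood at 1.23 to 5.89 in cg and was listed at 0 in all 3 r4 libraries, so no fold is given. ATPase8 rose with overlapping ranges, at 1.01 to 5.27 in cg and 0 to 1.13 in r4 (2.38 ± 0.71, adjusted p = 0.0131), and was not called without r4 55. ND6 was the one not called, at 0.261 to 3.83 in cg and 0.489 to 0.923 in r4 (0.92 ± 0.86, adjusted p = 0.416). The 2 cg sets had similar medians over the 13, at 5.20 for the first and 5.26 for the second.

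**Figure D1:**
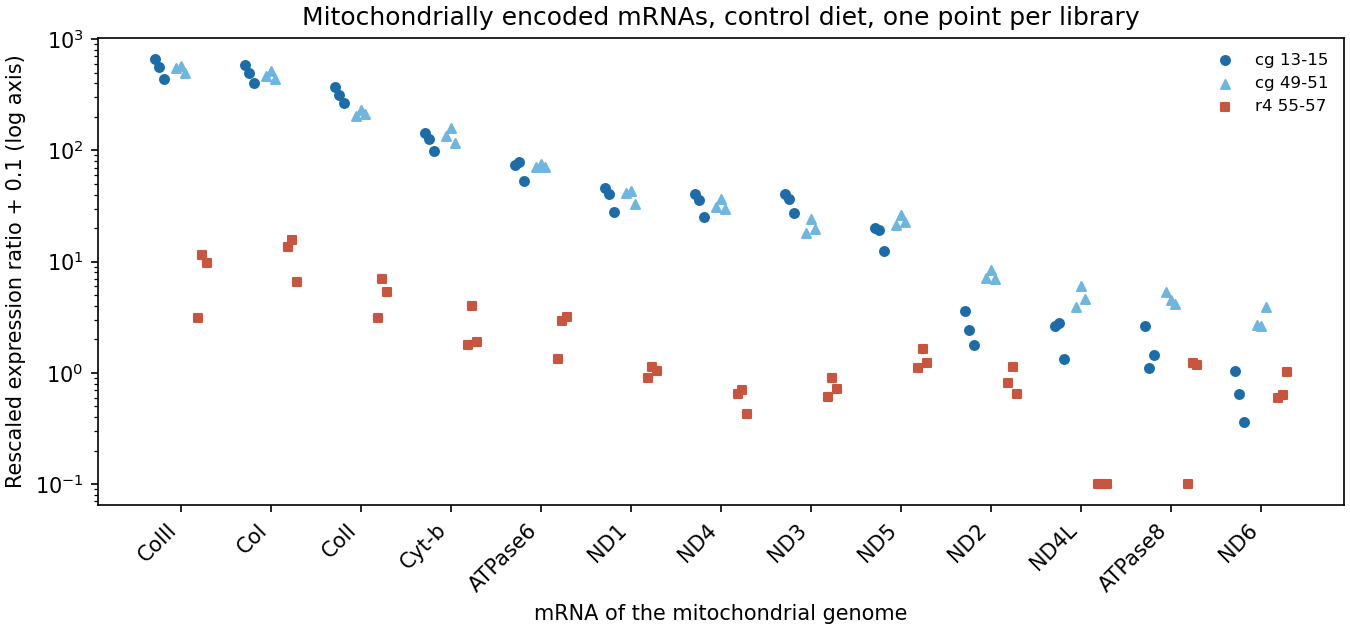
Expression ratio of the 13 mitochondrially encoded mRNAs in each library, plotted as ratio plus 0.1 on a log axis, with the first cg set (circles), the second cg set (triangles) and r4 (squares) from left to right within each gene. All 6 cg libraries lie above all 3 r4 libraries in each gene except ATPase8 and ND6, and ND4L is at 0 in r4.

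Nuclear genes of the same organelle did not move as a block. Of 28 nuclear genes of the respiratory chain and ATP synthase, 6 were called higher and 8 lower, with a median of -0.28, beside 17% higher and 19.1% lower over all features with a median of -0.06. Ucrh, the hinge subunit of complex III, stood at 18.6, 15.7 and 12.9 in the first cg set and 4.17, 6.26 and 8.01 in the second, against 0.622, 0.774 and 0.606 in r4 (3.67 ± 0.37, adjusted p = 1.9e-07). CoVa, a subunit of complex IV, stood at 0.792 to 12.9 in cg and 0.0784 to 0.222 in r4 (3.15 ± 0.65, adjusted p = 0.00092). Its cg maximum came from number 14 alone, and in the 60100 r4 libraries it was at 13.6 to 16.4. CG9140, the ND-51 subunit of complex I, fell to 0.808 to 1.66 in cg, against 3.19 to 3.37 in r4 (-1.29 ± 0.26, adjusted p = 0.00079). Of 59 mitochondrial ribosomal proteins, 3 were higher and 10 lower (median -0.19), with mRpS5 up by 1.44 ± 0.30 and mRpS22 down by 1 ± 0.24. Without r4 57, 2 of the respiratory genes and 2 of the mitochondrial ribosomal genes were called lower, and without r4 55, 5 of the ribosomal ones.

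The fourth chromosome was the other block. It is the small dot chromosome of the fly, largely heterochromatic in character though its genes are active. Of its 44 tested genes, 38 (86.4%) were called higher in cg and none lower, with a median log2 difference of 1.81, 1.99 in the first cg set and 1.41 in the second. In 34 of them the 6 cg and 3 r4 libraries did not overlap. Over all features, called or not, 14.1% were higher in cg without overlap. The summed ratio of the 44 genes was 443 to 497 in the first cg set and 232 to 276 in the second, against 126 to 157 in r4 and 81.2 to 112 in control 60100 r4. Genes of unrelated function shared the direction. Rfabg, the apolipophorin precursor that carries lipid in the haemolymph, stood at 136, 147 and 114 and at 64.3, 48.7 and 59.2 in the 2 cg sets, against 13.4, 29.4 and 3.66 in r4 (2.92 ± 0.55, adjusted p = 0.000449). CaMKI, a calmodulin-dependent kinase, stood at 45.8, 33.8 and 35.9 and at 20.8, 15.6 and 18.1 in cg, against 7.34, 12 and 4.30 in r4 (1.84 ± 0.31). The translation factor eIF4G had 3.32 to 5.95 in cg and 0.586 to 2.05 in r4 (1.82 ± 0.37). The Polycomb-group gene pho stood at 0.769 to 1.48 in cg and was listed at 0 in all 3 r4 libraries. RpS3A, a ribosomal protein gene, differed least among these named genes, at 97.3 to 195 in cg and 76.7 to 102 in r4 (0.61 ± 0.23, adjusted p = 0.0394), and was not called without cg 13, 14 or 15 or without any 1 of the r4 libraries. Apart from Rfabg, these genes were named after their values had been seen.

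Within r4 the fourth chromosome varied, and r4 57 was lowest. Centred on the mean of the 9 libraries, the median log2 level of the 44 genes was 0.70 to 1.13 in the first cg set and 0.29 to 0.38 in the second, against -0.94, -0.71 and -1.69 in r4 55, 56 and 57. Without r4 57, 32 of the 44 were called higher, with a median of 1.38, and with the second cg set alone 29 were. On the other arms the medians were nearer 0. The X chromosome had 104 of 822 features called higher (12.7%) and 223 lower (27.1%), with a median of -0.22, and the arms of chromosomes 2 and 3 had 13.7 to 18.9% higher and 15.5 to 22.2% lower. The mitochondrial genome and the fourth chromosome together held 50 of the 951 features called higher. In Drosophila both are rich in A and T, and the base composition of the transcripts was not measured here.

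**Figure D2:**
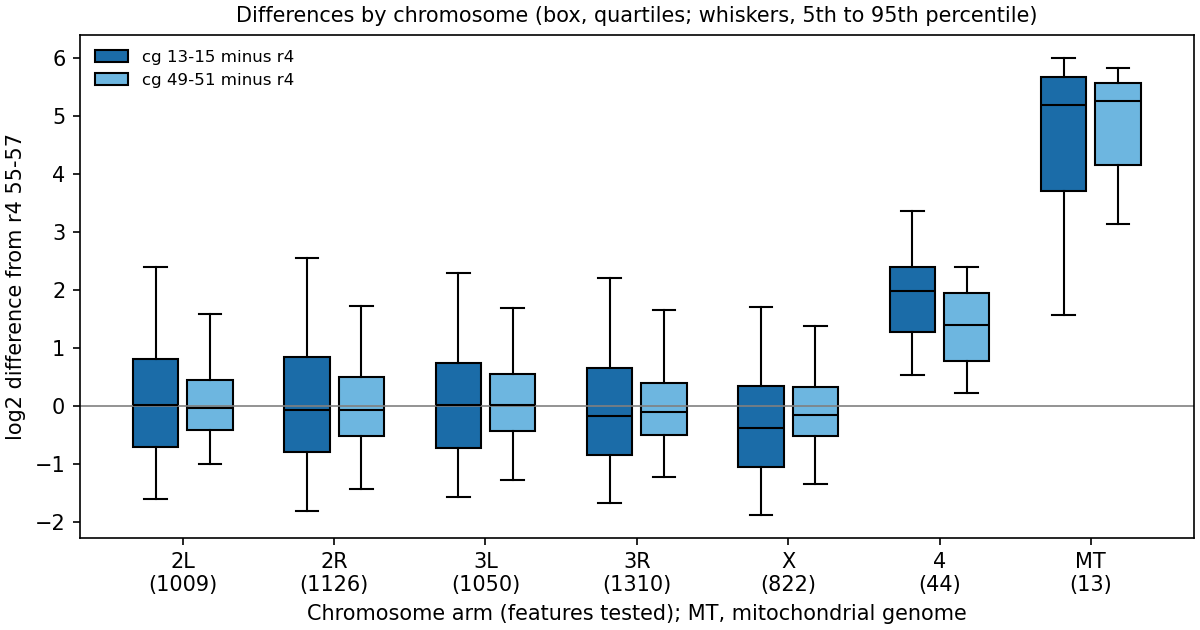
Log2 differences from the r4 libraries by chromosome arm, with the first cg set (dark boxes) and the second (light boxes), the number of features tested below each arm, quartiles as boxes and the 5th to 95th percentile as whiskers. Medians lie near 0 on the arms of chromosomes 2 and 3, at -0.37 and -0.16 on X, at 1.99 and 1.41 on chromosome 4 and at 5.20 and 5.26 in the mitochondrial genome.

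Differences of the first cg set also followed transcript length. The length was the median over a gene's transcripts in annotation release BDGP6.54, which 5361 of the 5602 features (95.7%) had, and genes of chromosome 4 and the mitochondrial genome were left out. In the 169 features of up to 500 nucleotides the median log2 difference from r4 was 1.28 for the first cg set and 0 for the second. In the 1045 features of over 3000 nucleotides it was -0.25 for the first and 0.10 for the second. The share called lower in cg was 5.33% in the shortest class and 26.4% in the 2043 features of 1500 to 3000 nucleotides, beside 19.1% over all features. The share called higher ran only between 14.4 and 20.1%. The genes of chromosome 4 were long, with a median of 3217 nucleotides, and were higher in both cg sets. Length moved with the differences of short genes below, and its part in them was not tested.

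**Figure D3:**
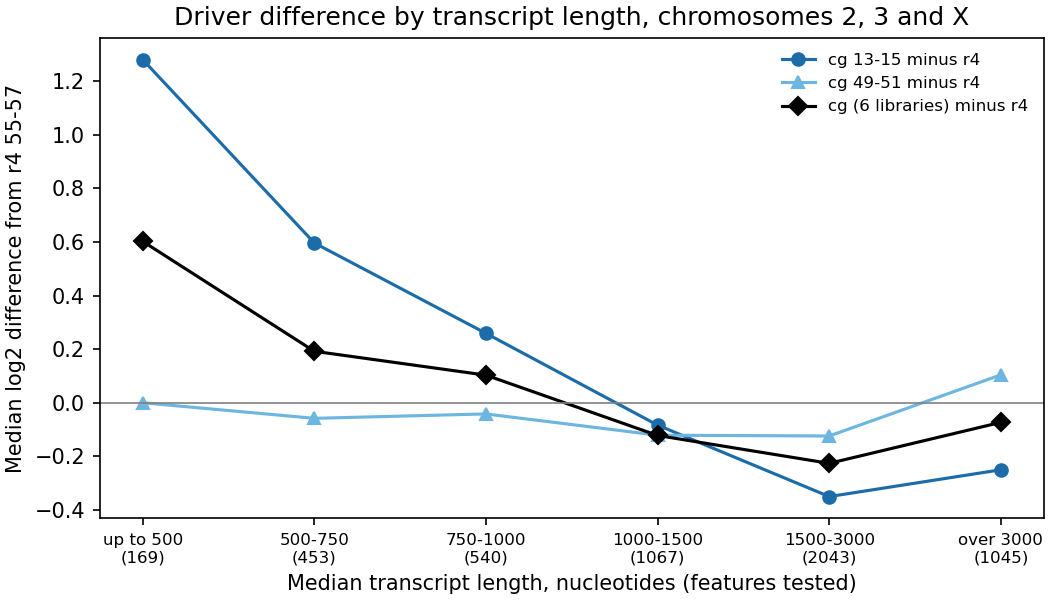
Median log2 difference from the r4 libraries in 6 classes of transcript length, for the first cg set (circles), the second (triangles) and all 6 cg libraries (diamonds). The first cg set runs from 1.28 in the shortest class to -0.25 in the longest, and the second stays between -0.12 and 0.10.

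Among single genes, the named set was the 12 largest rises and 12 largest falls among called genes whose mean reached 1 in cg or in r4 and whose libraries did not overlap. Of the rises, 7 were mitochondrial mRNAs. The others included CG42460, at 32.7, 22.1 and 46.7 and at 7.07, 6.44 and 7.41 in the cg sets, against 0, 0 and 1.15 in r4 (6.03 ± 1.78, adjusted p = 0.012). It was not called without r4 55 or without r4 56, and its difference ranged between 3.66 and 7.24 over the alternatives. CG18095 stood at 2.11 to 5.35 in cg and was listed at 0 in the 3 r4 libraries. The unnamed transcript noncoding_25217 stood at 18.5 to 181 in cg and 0.488 to 0.661 in r4 (6.37 ± 0.58), and noncoding_6216 at 19.3 to 41.8 in cg and 0.235 to 0.851 in r4 (5.47 ± 0.40).

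The falls held several genes listed at 0 in cg. CG14752 was listed at 0 in all 6 cg libraries and stood at 3.36, 1.85 and 5.38 in r4. CG42262, at 1.13 to 1.91 in r4, and CG13840, at 1.02 to 1.32, were likewise at 0 in the 6 cg libraries. nAcRbeta-21C, a subunit of the nicotinic acetylcholine receptor, stood at 0.249, 0.0910 and 0.493 and at 0.554, 0.868 and 1.44 in the cg sets, against 8.29, 8.86 and 11.4 in r4 (-4.03 ± 0.45, adjusted p = 9e-07). inx7, an innexin of gap junctions, stood at 0.192 to 0.434 in cg and 4.33 to 7.53 in r4 (-3.92 ± 0.29, adjusted p = 1.7e-09). CG1518 (Stt3A), a catalytic subunit of oligosaccharyltransferase, stood at 0.00145 to 0.0884 in cg and 1.19 to 2.04 in r4 (-3.88 ± 0.68). CG4045 (-4.18 ± 1.11), Sans (-3.57 ± 0.67) and CG13204 (-3.56 ± 0.71) fell as well. Sans was at 0 in 5 cg libraries and at 0.665 in the sixth, number 15.

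Some of these differences between 0 and a measured value held in all 26 libraries, diets and stocks together. In the series 10 features were at 0 in all 12 cg libraries and above 0 in all 14 r4 libraries, among them CG14752, CG42262, CG13840, the superoxide-producing oxidase gene Nox, and wisp, a cytoplasmic poly(A) polymerase known from the egg. The reverse held for 12 features, among them ND4L, the receptor gene mthl8 and grk, which encodes the TGF-alpha-like ligand Gurken. Nox stood at 0.205 to 0.340 in control r4, and grk at 0.410 to 0.928 in control cg, both low levels. Counted only over the 9 control libraries and with a mean of at least 1, 4 features were at 0 in cg and above 0 in r4, and 11 were at 0 in r4 and above 0 in cg. Between the 2 cg sets, 50 features reached a mean of 1 in the first and were at 0 in the second, and 1 the reverse.

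Genes tied to the drivers and the transgene came next. Dcr-2, whose reads come from the gene and the transgene together, stood at 65.3, 57.9 and 54.6 and at 107, 98.6 and 90.1 in the cg sets, against 39.2, 64.6 and 23 in r4. The first set overlapped r4 and the second did not, and the gene was not called (0.97 ± 0.41, adjusted p = 0.064). white, the eye colour transporter gene that is mutated in w1118, stood at 0.242, 0.287 and 0.355 and at 0.792, 0.689 and 0.635 in cg, against 1.63, 1.48 and 1.64 in r4 (-1.58 ± 0.28, adjusted p = 0.00027). Cg25C, the collagen IV gene whose sequence made the cg driver, had 1.45 to 3.36 in cg and 3.02 to 7.05 in r4 (-1.02 ± 0.49, adjusted p = 0.11). Its partner chain vkg had 0.764 to 1.16 in cg and 1.22 to 1.26 in r4 (-0.33 ± 0.31, adjusted p = 0.42). Of 13 basement membrane genes 2 were called, both lower, a share below the 19.1% over all features. They were nidogen, Ndg (-1.16 ± 0.30), and the prolyl hydroxylase PH4alphaEFB (-0.81 ± 0.27), with 0.490 to 0.911 in cg against 1.07 to 1.35 in r4. Of the 13, 8 differed between the cg sets, and 1 was called without cg 13, cg 14, r4 55 or r4 57. Of 9 RNA interference genes, AGO1, the microRNA effector, rose to 1.87 to 2.28 in cg, against 0.655 to 0.828 in r4 (1.39 ± 0.35), and r2d2, the partner of Dicer-2, rose with overlap (1.06 ± 0.29), and was not called without r4 55 or r4 57. Tudor-SN fell (-1.31 ± 0.27).

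Most tested genes of protein folding in the endoplasmic reticulum (ER) fell. Of 12 tested, 9 (75%) were called lower in cg and none higher, beside 19.1% lower and 17% higher over all features. The median of the 12 was -0.91, -0.84 in the first cg set and -0.85 in the second. The ER HSP90 Gp93 stood at 1.23, 2 and 2.60 and at 1.91, 2.32 and 2.28 in the cg sets, against 9.92, 8.89 and 12.3 in r4 (-2.30 ± 0.31, adjusted p = 1.3e-05). Crc, the calcium-binding chaperone calreticulin, stood at 9.89, 11.1 and 13.2 and at 16.4, 18.7 and 18.6 in cg, against 45.2, 47.7 and 60.2 in r4 (-1.83 ± 0.30, adjusted p = 0.0001). Xbp1, the transcription factor of the unfolded protein response, stood at 3.41 to 5.48 in cg and 12.2 to 13.6 in r4 (-1.52 ± 0.27), and the disulfide isomerase ERp60 at 5.45 to 11.1 in cg and 21.1 to 23.3 in r4 (-1.41 ± 0.29). In all 4 the groups were apart. Leaving out the first cg set left 5 genes called lower, and 5 were called when the run of numbers was a random block. All tested features of like length, 1500 to 3000 nucleotides, had a median of -0.23.

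Proteasome subunits that were called were lower too. Of 33 tested, 18 were called lower and none higher, beside 19.1% lower and 17% higher over all features. In 7 of the 18 the 6 cg and 3 r4 libraries did not overlap. Over all features, called or not, 17.7% were lower in cg without overlap. The median of the 33 was -0.61, -0.86 in the first cg set and -0.42 in the second. Rpn7, a lid subunit, stood at 1.1, 1.16 and 1.54 and at 2.34, 2.85 and 2.09 in the cg sets, against 4.81, 3.03 and 5.36 in r4 (-1.25 ± 0.29, adjusted p = 0.0023). The ATPase subunit Pros26_4 (Rpt2) fell by 1.43 ± 0.35, and the lid subunit Mov34 by 1.27 ± 0.32. The count was 4 without r4 57, 6 without r4 55, 11 without either cg 13 or cg 14, and 1 with the second cg set alone, and 23 of the 33 differed between the cg sets.

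Lysosomal genes went both ways, beside 17% called higher and 19.1% called lower over all features. Of 16 vacuolar ATPase subunits, which acidify lysosomes, 7 were higher and 1 lower (median 0.41), and without r4 57, 4 were higher. Vha16 stood at 20.9 to 30.0 in cg and 9.53 to 15.7 in r4 (1 ± 0.21, adjusted p = 0.00096), and Vha26 at 6 to 7.97 in cg and 0.71 to 4.36 in r4 (1.87 ± 0.40). Of 15 autophagy and lysosome genes 4 rose and 4 fell. Atg8a, the ubiquitin-like protein of the autophagosome membrane, stood at 57.3, 38.3 and 46.1 and at 25.2, 23.1 and 26 in cg, against 10.7, 16.9 and 9.41 in r4 (1.5 ± 0.30, adjusted p = 0.00073). The lysosomal membrane protein gene CG3305 (Lamp1) rose by 1.62 ± 0.31. Atg4, the protease that processes Atg8, stood at 0.0988 to 0.977 in cg and 3.02 to 3.28 in r4 (-3.11 ± 0.30, adjusted p = 9.7e-08), and Cp1, cathepsin L, fell by 0.95 ± 0.20.

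Insulin pathway genes that were called were higher in cg. Over all features 17% were called higher and 19.1% lower. Of 13 genes of insulin, FOXO and TOR signalling, 6 were called higher and none lower (median 0.72, 0.78 in the first cg set and 0.43 in the second). Among them Ilp6, an insulin-like peptide that the fat body secretes, stood at 29.3, 19.4 and 21.8 and at 25.2, 19.4 and 18.8 in the cg sets, against 6.39, 8.25 and 4.91 in r4 (1.77 ± 0.34, adjusted p = 0.00055). InR, the insulin receptor, stood at 0.418, 0.345 and 0.370 and at 0.356, 0.296 and 0.287 in cg, against 0.0970, 0.123 and 0.0622 in r4 (1.2 ± 0.26, adjusted p = 0.0013). The kinase Akt1 stood at 1.28 to 1.70 in cg and 0.410 to 0.829 in r4 (1.07 ± 0.26, adjusted p = 0.0032). The cg and r4 ranges of these 3 genes did not overlap. Of 7 sugar-sensing transcription factor genes, bigmax was called lower (-0.81 ± 0.29), but not without cg 13, 14 or 15 or r4 55, 56 or 57, and the others were not called.

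**Figure D4:**
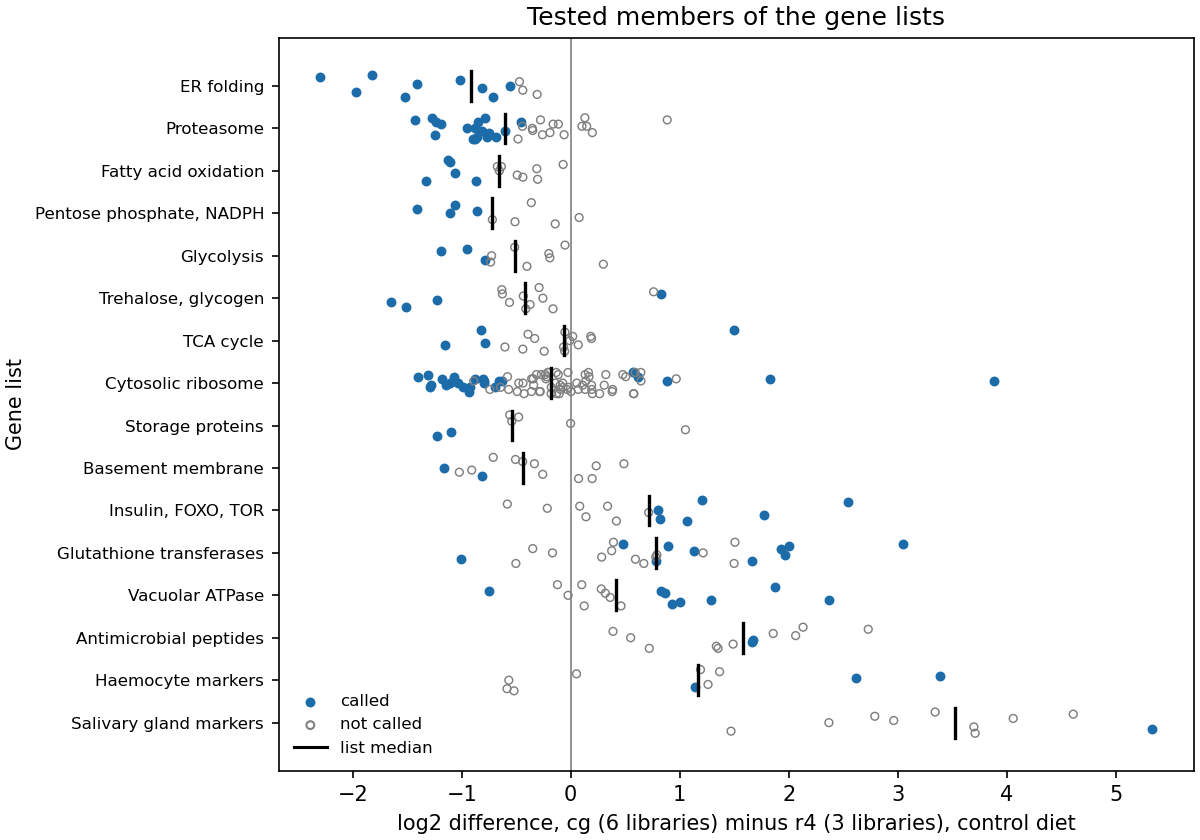
Log2 difference of each tested member of 16 gene lists, cg minus r4 on the control diet, with called members filled, members that were not called open and the list median as a black line. The 9 called ER folding genes and 18 called proteasome genes all lie below 0, and the 6 called insulin pathway genes all lie above it.

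Enzymes of 3 lists of sugar metabolism were called lower at shares of 21.4% to 44.4%, beside 19.1% over all features and 26.4% among features of 1500 to 3000 nucleotides, the class that holds the median length of each of these 3 lists. Of 9 genes of the pentose phosphate pathway and NADPH supply 4 fell (44.4%) and none rose (median -0.72). They were CG30410, ribose-5-phosphate isomerase (-1.41 ± 0.35), Tal, transaldolase (-1.1 ± 0.38), Pgd, phosphogluconate dehydrogenase (-1.06 ± 0.33), and Idh, isocitrate dehydrogenase (-0.86 ± 0.27). Tal stood at 3.60 to 6.18 in cg and 10 to 10.2 in r4. Of 11 glycolytic genes 3 fell (27.3%), close to their length class, with enolase, Eno, at 3.54 to 4.52 in cg and 7.29 to 11.2 in r4 (-1.19 ± 0.29, adjusted p = 0.0039), beside PyK (-0.95 ± 0.28) and Gapdh1 (-0.78 ± 0.27). Of 14 genes of trehalose, glycogen and gluconeogenesis 3 fell (21.4%) and 1 rose, a share below that class. The glycogen branching enzyme gene CG33138 (AGBE) stood at 1.03 to 1.95 in cg and 3.85 to 5.34 in r4 (-1.65 ± 0.36). Pepck, of gluconeogenesis, stood at 19.5, 19.7 and 25.3 and at 55.4, 48.4 and 29.7 in cg, against 66.2, 111 and 88.9 in r4 (-1.51 ± 0.44, adjusted p = 0.011). Tps1, which makes trehalose, the blood sugar of insects, fell by 1.23 ± 0.41, and UGP rose by 0.83 ± 0.22. With the second cg set alone none of the 9 pentose phosphate genes was called. Without r4 57, 1 was, as was 1 glycolytic gene, and UGP was not called. Without r4 55 or r4 56, 2 of the pentose phosphate genes were called.

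Called genes of lipid breakdown had the same direction. Of 13 fatty acid oxidation genes 5 fell (38.5%) and none rose (median -0.65), beside 19.1% lower and 17% higher over all features. Features of 1500 to 3000 nucleotides, the class of this list's median length, had 26.4% called lower and a median of -0.23. CG9527, an acyl-CoA oxidase, stood at 1.98 to 3.24 in cg and 5.17 to 6.36 in r4 (-1.11 ± 0.24, adjusted p = 0.0012). Both subunits of the mitochondrial trifunctional protein fell, CG4389 (Mtpalpha) by 1.12 ± 0.34 and Thiolase (Mtpbeta) by 1.06 ± 0.32, as did the acyl-CoA dehydrogenase Arc42 by 1.32 ± 0.36. Without r4 57, 3 of the 13 were called, and with the second cg set alone, 1. Of 8 fatty acid synthesis genes AcCoAS, acetyl-CoA synthetase, fell (-0.92 ± 0.29) and the rest were not called. Of 11 triglyceride and lipid droplet genes Lsd-1, the perilipin that coats droplets, stood at 20.4 to 32.4 in cg and 50.6 to 54.3 in r4 (-0.94 ± 0.20, adjusted p = 0.0014). The acyltransferase mdy, which makes triglyceride, rose with overlapping ranges, at 0.714 to 2.58 in cg and 0.529 to 0.716 in r4 (1.05 ± 0.32). The lipase gene CG11055 (Hsl) was called lower (-0.56 ± 0.22), but not without cg 13, 14, 15 or 49 or r4 55 or 57, nor with values as deposited or median-of-ratios scaling. AcCoAS was not called without r4 56 or r4 57, nor mdy without r4 57.

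In the citric acid cycle 3 of 17 genes fell and 1 rose, both shares below the 19.1% lower and 17% higher over all features. SdhB, of complex II, stood at 0.943 to 1.65 in cg and 2.08 to 3.18 in r4 (-0.78 ± 0.25). None of the 17 was called lower without r4 57, and 1 was without r4 56. Of 13 purine genes, ras, IMP dehydrogenase, fell (-1.39 ± 0.30), as did ade3, of purine synthesis (-1.30 ± 0.42), among 4 called lower with Prat and ade5, and 1 was called lower without r4 57 or without r4 55. Adgf-A, a secreted adenosine deaminase, rose (0.85 ± 0.20), as did Uro, urate oxidase (1.83 ± 0.57). Without r4 55, 1 of these 2 rises was called. Of 14 amino acid genes 4 rose, among them Gdh, glutamate dehydrogenase, at 8.20 to 13.5 in cg and 2.23 to 6 in r4 (1.61 ± 0.38, adjusted p = 0.0027), and M(2)21AB, S-adenosylmethionine synthetase (1.58 ± 0.38). Oat, P5cr and pug fell, with none called lower without cg 13, cg 14, r4 55 or r4 57, and 1 without cg 15 or r4 56.

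Detoxification enzymes were called in both directions, beside 17% called higher and 19.1% called lower over all features. Of 23 glutathione transferases, which conjugate toxic compounds, 9 rose (39.1%), 1 fell and the others were not called (median 0.78, 1.25 in the first cg set and 0.55 in the second). GstD10 stood at 21.3, 23.9 and 21.1 and at 12.9, 8.52 and 15.7 in the cg sets, against 3.61, 5.27 and 3.31 in r4 (2.01 ± 0.30, adjusted p = 3.9e-05). GstE1 had 2.11 to 4.31 in cg and 1.34 to 1.42 in r4 (1.13 ± 0.19), and GstD1 had 37.4 to 59.9 in cg and 24 to 32.9 in r4 (0.78 ± 0.20). GstE5 stood at 0.576 to 1.19 in cg and was listed at 0 in the 3 r4 libraries. With the second cg set alone, 3 were called higher. These genes have a median transcript of 834 nucleotides, and features of 750 to 1000 nucleotides had a median of 0.10. Of 41 tested genes in the list of cytochromes P450, 10 rose and 8 fell, the falls close to the share over all features. The list was drawn by symbol and also held Cyp1 and CG8336 (Cyp40), which are not P450s and were not called. Cyp9c1 fell to 1.24 to 1.90 in cg, against 4.78 to 5.28 in r4 (-1.72 ± 0.26, adjusted p = 4.9e-05), and Cyp309a1 fell by 1.43 ± 0.26. Each of the 10 rises had overlapping ranges, and 3 were called without r4 57, 4 without r4 55 and 6 without cg 13. Of 13 redox genes 3 rose and 1 fell, the thioredoxin reductase Trxr-1 (-1.42 ± 0.30), with none called higher without r4 57 and 1 without cg 13, cg 15 or r4 55.

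Few immune genes were called. Of 12 antimicrobial peptide genes 2 rose and none fell (median 1.58), a share of 16.7% beside 17% over all features and 20.1% in the shortest transcript class. Drs, the antifungal peptide drosomycin, stood at 98.0, 81.2 and 71.7 and at 24.3, 28.2 and 17.6 in the cg sets, against 15.8, 8.17 and 19.6 in r4 (1.67 ± 0.47, adjusted p = 0.0088), so only the first set cleared r4. AttC, an attacin, stood at 1.54 to 6.39 in cg and 0.734 to 1.21 in r4 (1.67 ± 0.62). Neither peptide was called without r4 56, and 1 was without cg 13, 14, 15 or 49 or without r4 55 or 57. Of 8 immune-induced peptide genes 3 rose, with CG15068 (BomS6) at 1 to 2.48 in cg and listed at 0 in r4. With the second cg set alone 1 of the 8 was called. Both lists hold short transcripts, with medians of 437 and 364 nucleotides. Of 25 sensing and signalling genes 3 rose (12%) and 2 fell (8%), both shares below those of all features. spz, the ligand of the Toll receptor, stood at 1.21 to 1.69 in cg and 0.274 to 0.734 in r4 (1.51 ± 0.32), and pirk, an inhibitor of the Imd pathway, at 0.403 to 0.788 in cg and 0 to 0.188 in r4 (2.09 ± 0.50). PGRP-SC2, an amidase that degrades peptidoglycan, stood at 0 to 5.45 in cg and 4.58 to 13.9 in r4 (-3.33 ± 0.99, adjusted p = 0.013). It and GNBP3 were the 2 falls, with neither called without r4 57 and 1 without cg 13, 14 or 51 or without r4 55 or 56, and 5 rises were called without r4 56.

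Secreted proteins of the fat body went both ways. Of 7 storage protein genes 2 fell and none rose, beside 19.1% lower and 17% higher over all features. Fbp1, the receptor that takes storage proteins back up, stood at 1273, 788 and 1489 and at 2316, 1825 and 1251 in the cg sets, against 3306, 3301 and 3302 in r4 (-1.23 ± 0.29, adjusted p = 0.0029). Lsp2, a larval serum protein, stood at 1452 to 2412 in cg and 3516 to 4361 in r4 (-1.1 ± 0.31, adjusted p = 0.0086). Fbp2 had 1996 to 2631 in cg and 3165 to 3241 in r4 (-0.54 ± 0.22, adjusted p = 0.053). Lsp1alpha had 530.5 to 2358 in cg and 333.6 to 1357 in r4 (1.05 ± 0.44, adjusted p = 0.065). Of 6 lipid carrier genes Rfabg rose, as given above, and CG31150 (cv-d) fell (-0.85 ± 0.27). Of 7 odorant-binding protein genes, small secreted carriers, Obp99c stood at 63.8 to 88.1 in cg and 136 to 179 in r4 (-1.01 ± 0.30), and Obp83ef fell by 0.94 ± 0.32. Neither was called without r4 55, and Obp83ef was not called without cg 13, cg 14 or r4 57. CG31150 was not called without r4 55 or r4 56.

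Of 85 genes in the list of cytosolic ribosomal proteins, 5 were higher and 19 lower (median -0.18), beside 17% and 19.1% over all features. The list was drawn by symbol and held some genes named only as like a ribosomal protein. Among these were CG5317 (RpL7-like), called higher, and CG6764 (RpL24-like), called lower. There were 3 lower without r4 57 and 8 without r4 55, and 12 higher without cg 50. Features of 500 to 750 nucleotides, the length of these genes, had a median of 0.19. RpL38 was apart from the others, at 152, 133 and 128 and at 48.8, 49.2 and 54.3 in the cg sets, against 9.43, 2.77 and 6.49 in r4 (3.89 ± 0.60, adjusted p = 5.9e-05). The heat shock, cytoskeleton and ecdysone lists that follow had no larger share called, higher or lower, than all features. Of 20 heat shock genes 3 rose and 3 fell. Among the 3 rises were Hsp70Bc and Hsp70Bbb, near-identical copies that share reads, so their values are uncertain, and 1 fall was called without r4 55 or without r4 57. Of 18 actin and tubulin cytoskeleton genes, the actin-severing cofilin tsr rose (1.04 ± 0.28) and 3 fell, and 11 differed between the cg sets. Of 13 ecdysone response genes, the receptor EcR rose with overlap (0.98 ± 0.30), and ImpE1 (-2.20 ± 0.44) and Eip71CD (-0.67 ± 0.23) fell. Neither EcR nor Eip71CD was called without r4 55 or without r4 57, and Eip71CD was not called with values as deposited or median-of-ratios scaling.

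**Figure D5:**
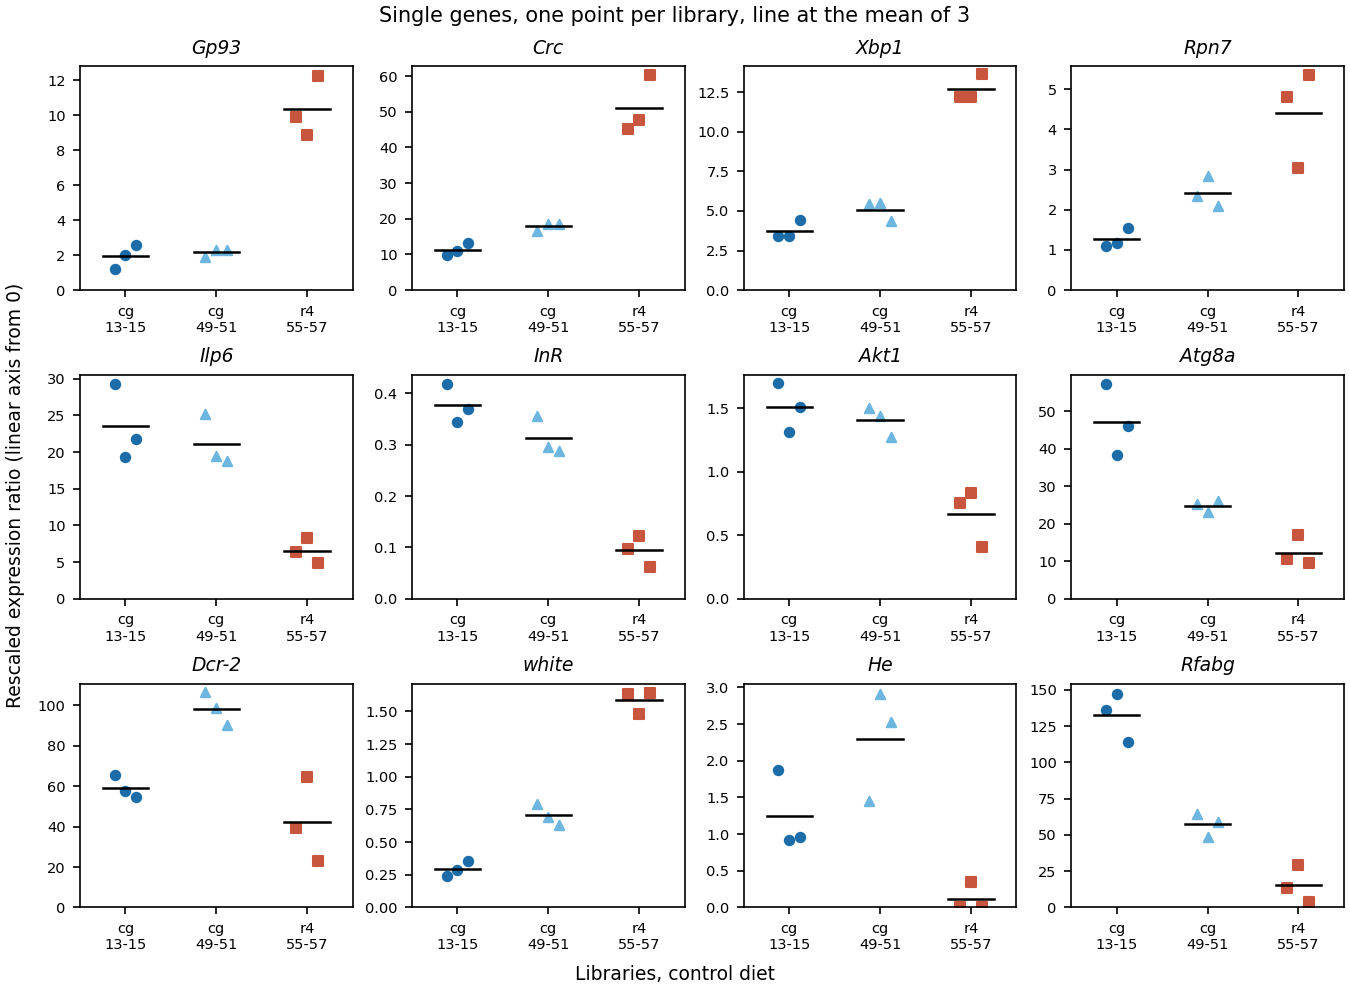
Expression ratio of 12 genes in each library on linear axes from 0, with the first cg set, the second cg set and r4 from left to right and a line at the mean of each 3 libraries. Gp93, Crc, Xbp1 and white lie lower in all 6 cg libraries, Ilp6, InR, Akt1, He and Rfabg lie higher, and Dcr-2 overlaps between the first cg set and r4.

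Markers of other tissues were set beside these results. Haemocytes, the blood cells in which the cg driver is also active, had 3 of 10 tested markers higher in cg and none lower. Over all features 17% were called higher and 19.1% lower. The median log2 difference of the 10 markers from r4 was -0.20 in the first cg set and 1.82 in the second. Between the 2 cg sets 7 of the 10 differed. He stood at 1.87, 0.923 and 0.964 and at 1.45, 2.91 and 2.53 in the cg sets, against 0, 0.349 and 0 in r4 (3.38 ± 0.44, adjusted p = 8.4e-06). The scavenger receptor gene crq stood at 2.74 to 3.98 in cg and 1.09 to 2.06 in r4 (1.14 ± 0.23), and Sr-CIV at 0.247 to 0.829 in cg and at 0 in r4. The summed ratio of the 13 haemocyte markers was 19.2 to 28.9 in the first cg set and 50.2 to 62.4 in the second, against 39.7 to 46.5 in r4. One gene, nimC2, gave most of that sum, at 19.1, 12.3 and 21.5 and at 44.7, 35.4 and 21.8 in the cg sets, against 41.3, 32.4 and 33.5 in r4. With the second set alone 6 of the 10 were higher.

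Salivary gland genes separated the cg sets from each other. The sum of 10 markers was 2860 to 4980 in the first cg set and 51 to 966 in the second, against 22.6 to 302 in r4, and Sgs5 alone was called (5.33 ± 1.99, adjusted p = 0.04). It was not called without cg 13, 14 or 15 or without r4 55, 56 or 57, and without cg 49, 5 of the 10 were called. Cuticle markers summed to 83.2 to 105 in the first cg set and 1.45 to 1.99 in the second, against 17.2 to 44.2 in r4, and muscle markers to 16.4 to 25.6 and 4.25 to 6.20, against 9.30 to 15.7. Midgut markers summed to 16.4 to 159 and 8.48 to 129 in the cg sets and 85.4 to 223 in r4, with none of 14 called. Malpighian tubule markers summed to 12.7 to 17.2 and 24 to 38 in cg and 4.27 to 7.76 in r4, with 2 of 4 higher, Uro and the transporter NaPi-T (1.72 ± 0.48), and Uro was not called without r4 55. Ring gland, nerve, disc, tracheal, germline and oenocyte markers summed to at most 22.3 in any cg library and 20.6 in any r4 library. The counts of called markers here stand beside 17% called higher and 19.1% called lower over all features. The part of other tissues in the gene differences was not tested.

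On the high-sugar diet (0.7 M) the cg and r4 groups of w1118 were compared again through an interaction term, which asks whether the driver difference changed with diet. It was past 0.05 in 59 features (1.05%), and 41 of the 2022 called features were among them. The mitochondrial CoII was among them, with 5.74 on the control diet and 0.88 on high sugar, where the r4 libraries stood at 127, 179 and 59.3 (interaction 4.86, adjusted p = 0.000107). CoI had 81.8, 101 and 43.6 in high-sugar r4 (2.85, adjusted p = 0.0011). The other 11 mitochondrial mRNAs were not past 0.05 in the interaction. Summed over the 13, high-sugar libraries held 954 to 1870 in cg and 116 to 349 in r4. CG15068 (BomS6), at 0 in control r4, stood at 1.59 to 6.98 in high-sugar cg and 9.96 to 11.4 in high-sugar r4, the other way round (adjusted p = 6.55e-05 for the interaction). CG34194 stood at 0.350 to 1.45 in control cg and 2.34 to 3.32 in control r4, and on high sugar it was at 0 in all 6 cg libraries and at 3.66 to 5.94 in r4 (adjusted p = 6.55e-05). CG7039 (Arfrp1), at 0.214 to 0.341 in control cg and 0.199 to 0.257 in control r4, stood at 0.290 to 0.525 in high-sugar cg and at 0 in high-sugar r4 (adjusted p = 4.14e-05). On chromosome 4 the median high-sugar difference was 1.53 and 1 of the 44 genes was past 0.05 in the interaction.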

How the data were processed

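The deposited table gave 1 value per feature and library. The deposited values are ratios to an upper quartile that is exactly 1 in each library, as the values show, and the authors' scaling step is not given in the sources used here. Reads were mapped to dm3 with TopHat 1.3.2 and Bowtie 0.12.7 and quantified with Cufflinks 1.1.0, per the submitters' processing notes. Read depth is unknown, so no counting interval is given. All 26 libraries were rescaled here to a common upper quartile over the 10094 features above 0 in any of them, and log2(ratio + 0.1) was tested with limma 3.58.1 (R 4.3.3; trended variances, Benjamini-Hochberg adjustment, threshold 0.05). Tested were 5602 features whose mean over the 9 control w1118 libraries reached 0.25. Because of the pseudocount, differences of low genes are understated. The 26 libraries shared 1 estimate of spread, with a mean for each stock, driver and diet, or for each run of numbers and diet. The code was tested on simulated data. Named genes were the 12 largest rises and falls without overlap, Dcr-2, white, Cg25C and vkg, up to 4 members of each list by smallest adjusted p, and 5 interactions. Other genes of the lists, the mitochondrial genome and chromosome 4 were named after their values had been seen, and some genes are not reported here. The libraries and lists were chosen with earlier results of these data known. Alternatives covered the pseudocount, the filter, the scaling, the variance estimate, the libraries fitted, the run of numbers as a random block and leaving out each library or cg set.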

Additional observations from a re-analysis of the deposited data

Results flagged for a closer look

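Within the 6 control cg libraries, 215 values (202 genes and 13 marker sums) were looked at for 1 library lying apart from the rest, and 14 were found, where chance gives about 1 in 20. In 5 of them the library was cg 51. CG1518 stood at 0.0884 there, with the next library at 0.00994, PGRP-SC2 at 5.45, ImpE1 at 0.588, GstE5 at 1.19 and Amy-p, a midgut amylase, at 0.603. In cg 14, CoVa stood at 12.9 with the next at 2.37, Cyp6a23 at 5.77 and the cuticle gene Pcp at 3.14. In cg 13, pirk was high at 0.788 and SdhB low at 0.943. Sans stood at 0.665 in cg 15 and at 0 in the other 5, and ATPase6 was lowest in cg 15 at 52.9. Atg4 stood at 0.977 in cg 49, and ImpL2, an insulin-binding protein, at 4.58 in cg 50.

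In 13 of the 202 genes examined, the difference between cg and r4 changed with diet by a test of the interaction. Some of the 202 had been named for a small interaction p, and 59 of all tested features passed. The interaction is given here as the control difference minus the high-sugar difference on the log2 scale. CG15068 had 5.82, CoII 4.86, CoVa 4.85, noncoding_6216 4.28, GstE5 3.98, RpL38 3.53, CG34194 3.46 and CoI 2.85. CG14752 had 2.49, pho 1.91, inx7 1.81, Sod 1.15 and CG7039 -2.01. Where a group was listed at 0, the size depends on the pseudocount.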

How the results depend on the processing

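The count of features called between cg and r4 (2022) was 1030 with a minimum mean of 1, where fewer features were tested. It was 1057 with the run of numbers as a random block (correlation 0.284). With the first cg set's control libraries left out of the same fit it was 999, beside 1626 for the second set in the fit by run and diet. Leaving out 1 library gave 1194 to 2174, lowest without r4 57. The first cg set against r4 gave 2569 to 2991 and the second 1114 to 1741 when 1 library was left out, and 1537 and 919 with a minimum mean of 1. The 2 cg sets differed in 1042 features with that filter and in 1150 to 1834 with 1 library left out, lowest without cg 14. The interaction count (59) was 177 without the filter, 39 with values as deposited, 362 with robust variances and array weights, and 41 to 80 with 1 library left out. The cause of these changes was not tested. Median-of-ratios scaling moved the median log2 difference of all features to 0.08, against -0.06, and gave 1158 higher and 931 lower. Of 202 single genes examined, 78 were called under every alternative that could test them and 76 were lost under at least 1. Of these, 46 were lost with the random block and 38 without r4 57, and 65 with the second cg set alone, and no called gene reversed. Fbp2, not called, reversed to 0.645 (limma adjusted p = 0.019) under quantile normalization. No paired analysis was possible because the groups share no replicate numbers. Unknown depth limits what values near 0 can show.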
